A study of Drosophila simulans x Drosophila sechellia and Drosophila simulans x Drosophila mauritiana and Drosophila mauritiana x Drosophila simulans with 63 samples.

Results

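The pair-rule genes of 3 sister species, *Drosophila simulans* (*sim*), *D. mauritiana* (*mau*) and *D. sechellia* (*sec*), were followed in single embryos of the species and of their hybrids. The members were the 9 genes whose *D. melanogaster* symbol was *eve*, *ftz*, *h*, *run*, *odd*, *prd*, *slp1*, *slp2* or *opa*. All 9 were listed in each of the 3 pairwise tables, which together held 11315 genes. Pair-rule genes encode transcription factors that turn the broad domains of the gap genes into stripes along the blastoderm embryo. *eve*, *h* and *run* are commonly called primary pair-rule genes, since their stripes are placed largely by maternal and gap factors, while *ftz*, *odd*, *prd*, *slp1* and *slp2* take more of their pattern from other pair-rule genes, and *opa* is expressed in a broad band and changes how the others act on each other. Their products in turn set the stripes of segment polarity genes such as *en* and *wg*. These roles were worked out in *D. melanogaster*.

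RNA was measured in 63 single embryos. For each species 3 embryos of stage 2, when the RNA present is that left in the egg by the mother, and 3 of late stage 5, at the end of cellularisation, represented the parental lines. At stage 5 there were 6 F1 embryos each of the crosses *sim* x *mau*, *mau* x *sim*, *sim* x *sec*, *sec* x *mau* and *mau* x *sec*, written with the mother first. The label of sex was XX for 4 and XY for 2 of the *sim* x *mau* embryos and 3 and 3 in the other crosses. At stage 2 there were 3 embryos laid by F1 hybrid mothers of each of the same 5 crosses, since only a hybrid mother makes a hybrid maternal RNA pool. By the methods, these F1 females were backcrossed to males of the species that was the mother in the first cross. The parental and stage 2 embryos had no sex label, and 1 strain stood for each species. The embryos were untreated. Replicates were separate single embryos, so the p-values measure the spread between these embryos, and in RNA of a whole embryo fewer expressing cells and less RNA per cell cannot be told apart.

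Values were reads assigned to one allele or the other at sites that differ between the species of a pair, scaled by the study and called scaled reads below. Between 2146524 and 7044646 reads per embryo were assigned (median 3901731). Each table was scaled by itself, so tests were made only within a table. Reads of each pair were mapped to the genome of each of its species. The main values came from mapping to *sim* for the pairs with *sim* and to *sec* for the *mau* and *sec* pair, and the other mapping is given beside them. Maternal markers (*bcd*, *nos*, *osk*, *gcl*, *pgc*, *CycB*) fell and zygotic blastoderm markers rose between the stages, with 6 of 6 maternal markers lower and 6 of 6 zygotic ones higher in *sim*, and at stage 5 the 6 measured of 7 eggshell markers of follicle cells summed to 0 to 4.3. Among 30 hybrid stage 5 embryos, 4 of the 6 *mau* x *sec* embryos carried X-linked transcripts that went against their label of sex. Of these, the library labelled XX replicate 4 held only the maternal allele of *run*, the libraries labelled XY replicates 2 and 3 held both alleles, and replicate 5 is described with its autosomal genes at the end. The parental libraries were, by the methods, taken from an earlier experiment, so that in every comparison of a hybrid with a parent the cross and the experiment cannot be told apart.

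The genes lie on several chromosome arms, with the *slp* paralogs next to each other and *odd* near them on 2L. In the *D. simulans* assembly *eve* (FBgn0269020, a homeodomain repressor) was listed with exons on 2R from 6640460 to 6643267, *h* (FBgn0016346, a basic helix-loop-helix repressor that works with Groucho) on 3L from 8457751 to 8458548, and *run* (FBgn0016352, a Runt-domain factor that also counts X chromosomes upstream of *Sxl*) on X from 19285837 to 19287130. The homeodomain gene *ftz* (FBgn0020697) was on 3R from 2583959 to 2584785, and the zinc-finger repressor *odd* (FBgn0194139) on the minus strand of 2L from 3464637 to 3465092. *prd* (FBgn0193543, with a paired domain and a homeodomain) was on the minus strand of 2L from 11707097 to 11707680. The forkhead genes *slp1* (FBgn0194648) and *slp2* (FBgn0269937) followed each other on 2L from 3677373 to 3678792 and from 3688528 to 3689997, and the Zic-family zinc-finger gene *opa* (FBgn0191241) was on 3R from 612422 to 613669. Only reads over a variant site were counted. Over the tables and mappings, the highest number of such sites in any stage 5 embryo was 2 to 21 for *h* and 3 to 10 for *eve*. It was 4 to 14 for *run*, 5 to 14 for *opa* and 25 to 46 for *prd*. *h* had 16 or more only when mapped to *sim*. Single embryos had as few as 1 for *eve*, 2 for *run* and 4 for *opa*. Levels of different genes were therefore not compared. *slp1* and *slp2*, *odd* with its neighbours *Sob* and *drm*, and *prd* with *gsb* are related in sequence, and a read shared between relatives could have been counted for either.

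All 9 genes rose from almost no RNA at stage 2 to a high level at stage 5 in all 3 species. At stage 2 the own-species allele of a member had between 0 and 3 reads over the 3 embryos of a species, apart from *slp1* in *mau* with 10 reads. At stage 5 *prd* reached 2887 ± 217 scaled reads in *sim* (SD, n = 3), 1809 ± 146 in *mau* and 2234 ± 642 in *sec*, the last from a separate table. *ftz* reached 2130 ± 212, 1676 ± 373 and 1930 ± 322 in the same order. *slp2*, the member with the least scaled reads in *sim*, still reached 207.6 ± 12.1, 164.6 ± 37.7 and 138 ± 12.7. No stage 2 embryo approached a stage 5 embryo of its species for any member in this mapping.

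The test called 9 of 9 members higher at stage 5 in *sim*, *mau* and *sec*, where 49.6%, 50.5% and 48.7% of all genes tested were called higher. The median log2 difference over the members was 9.34, 8.49 and 9.61, against 0.44, 0.50 and 0.50 over all genes. The stage 2 side rested on the added pseudocount where it held no read. Set against a floor of 3 reads over the 3 stage 2 embryos, the 6 members without a read in *sim* were at least 302-fold (*eve*) to at least 2630-fold (*ftz*) higher at stage 5, the 7 in *mau* at least 187-fold (*eve*) to at least 2272-fold (*prd*), and the 5 in *sec* at least 202-fold (*slp2*) to at least 1740-fold (*odd*). With those genes at their bounds the medians became 9.65, 8.82 and 10.05. Embryos from hybrid mothers were also low at stage 2, with at most 6.1 scaled reads for a member in the main mapping, so maternal alleles of the pair-rule genes could not be compared at this depth. No member reached the minimum mean of 5 at stage 2 in the main mapping, so none was tested between species at that stage. For the same reason each member entered the test between stages only through its stage 5 level.

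**Figure D1:**
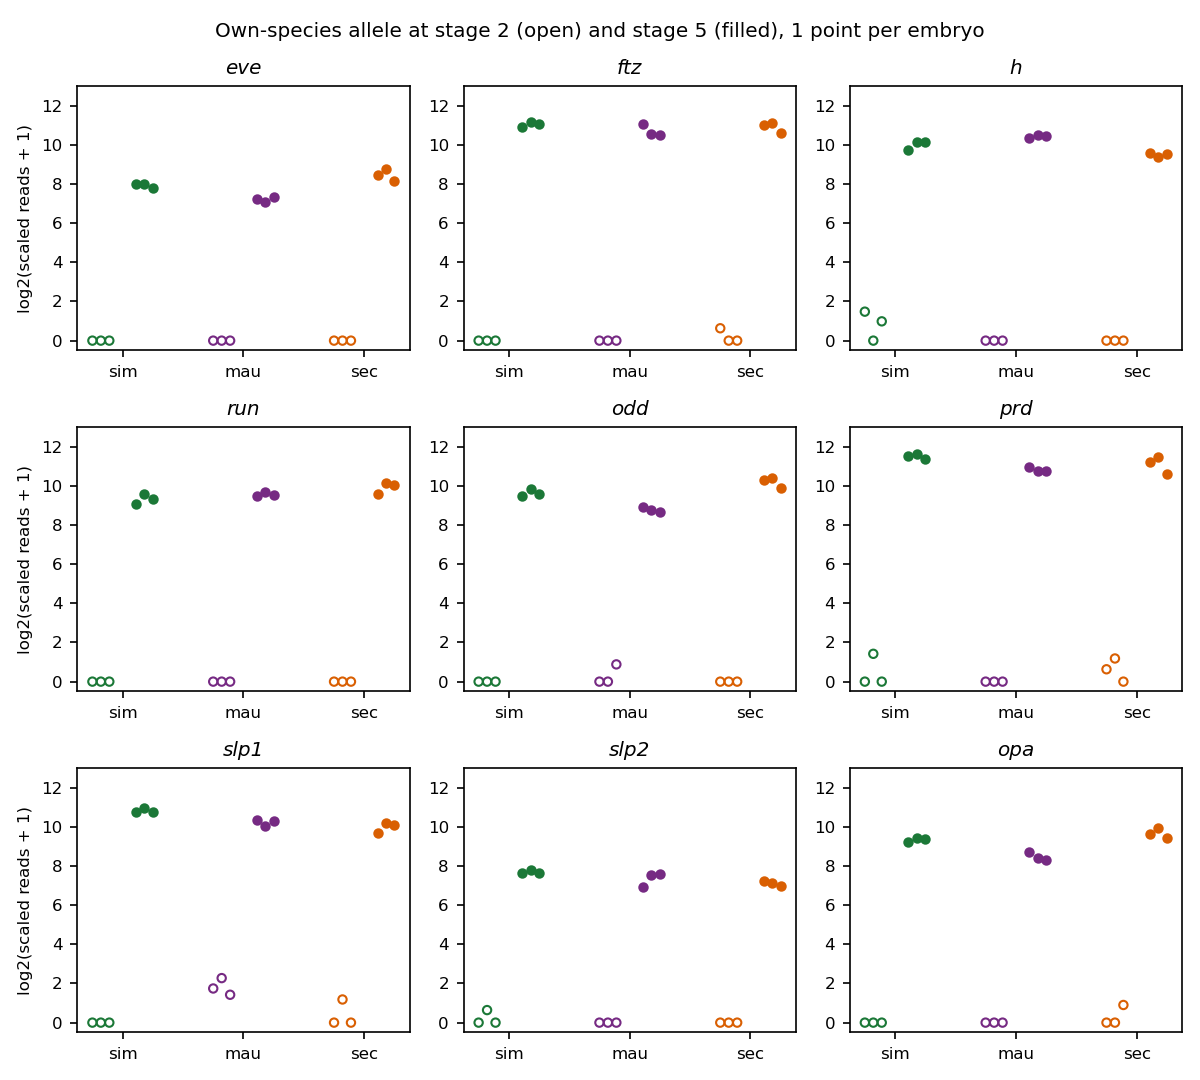
Level of the own-species allele of each pair-rule gene at stage 2 (open points) and stage 5 (filled points) in *sim*, *mau* and *sec*, as log2(scaled reads + 1), with 1 point per embryo and 3 per group (*sec* values are from a separately scaled table). Stage 2 points sit at or near 0, apart from *slp1* in *mau*, and all stage 5 points lie far above them.

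*odd* was the exception when reads were mapped to *mau*. Its summed value at stage 2 was then 54.4 to 112 in the *sim* embryos, 46.4 to 57.5 in the *mau* embryos and 30.7 to 49.6 in the *sec* embryos, while embryos of hybrid mothers held 0 to 0.94. Mapped this way, 30.6% of the stage 5 *odd* reads of *sim* embryos were assigned to the *mau* allele, a larger share than in 99.5% of genes (median over genes 0.114%), so the allele values of *odd* in that mapping mixed the species. *odd* was still higher at stage 5 in that mapping, by a log2 difference of 6.00 in *sim* and 3.33 in *mau*. The main mapping also misassigned some reads of members at stage 5. In the *sim* and *sec* table these were 4.88% of *odd* in *sec* embryos and 3.21% of *eve* in *sim* embryos. In the *mau* and *sec* table they were 5.16% of *eve* in *sec* embryos. These shares were larger than in 95.8%, 98.0% and 95.9% of genes (medians over genes 0.170%, 0.059% and 0.054%). Outside the main mapping, misassigned shares included 8.09% of *odd* in *sim* embryos and 8.51% of *eve* in *sec* embryos mapped to *sec* in the *sim* and *sec* table. Another was 7.22% of *eve* in *mau* embryos mapped to *mau* in the *sim* and *mau* table. These were larger than in 97.5%, 97.5% and 98.2% of genes.

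Between species at stage 5, the pair-rule genes that differed between *sim* and *mau* were all higher in *sim*: *odd*, *opa*, *eve*, *prd* and *slp1*, or 5 of 9 where 50% of all genes differed and 22.4% were higher in *sim*. The median log2 difference over the members was 0.59, against −0.060 over all genes. In the other mapping *odd* was not higher in *sim* (log2 difference −0.20) and *prd* was not called (0.36, adjusted p = 0.0655). At the same time the transcripts of early cellularisation summed to 6406 to 9950 in the *sim* embryos and to 13189 to 18042 in the *mau* embryos, and those of the start of gastrulation to 1388 to 2297 and 1160 to 1438, so the species also differed in markers of time within the stage, and their part in the differences was not tested.

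Of the primary genes, *eve* held 257.5, 256.7 and 220.4 scaled reads in the *sim* embryos and 151.8, 134.0 and 162.2 in the *mau* embryos. The groups did not overlap, and the log2 difference was 0.71 (SE 0.13, adjusted p = 0.00619, limma). Mapped to *mau*, the *mau* embryos held 10.2 to 19.7, and the difference rose to 3.34. There the *mau* embryos had only 6 to 11 reads of their own allele each, and 7.22% of their *eve* reads were assigned to *sim*. *h* held 850.8, 1124 and 1130 in *sim* and 1292, 1446 and 1385 in *mau*. Every *mau* embryo lay above every *sim* embryo, but the difference of −0.42 (SE 0.15, adjusted p = 0.0578) did not pass the test, and mapped to *mau* it reversed to 0.86 as the *mau* level fell to 172 to 214. *run* held 542.8, 766.1 and 647.3 in *sim* and 703.8, 807.6 and 739.7 in *mau*. These groups overlapped (−0.21, adjusted p = 0.291), and here too the other mapping reversed the sign (1.63), with *mau* at 66.3 to 78.9.

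*odd* held 718.2, 908.9 and 770.4 in *sim* against 474.2, 433.2 and 404.6 in *mau*, a log2 difference of 0.86 (SE 0.14, adjusted p = 0.00375) in the main mapping only. *ftz* overlapped between the species, with 1905, 2326 and 2160 in *sim* and 2106, 1487 and 1435 in *mau* (0.36, adjusted p = 0.145). *prd*, an activator of segment polarity genes, held 2893, 3101 and 2667 in *sim* and 1977, 1744 and 1708 in *mau* without overlap (0.67, SE 0.12, adjusted p = 0.0057). Both *slp* genes, which repress the segment polarity gene *en*, leaned the same way, but only *slp1* passed. *slp1* held 1700, 1987 and 1710 in *sim* and 1286, 1057 and 1255 in *mau* (0.59, adjusted p = 0.0131), and was also called when mapped to *mau* (0.62, adjusted p = 0.00949). *slp2* held 200.7, 221.5 and 200.6 against 121.4, 181.7 and 190.7, groups that did not overlap but were too spread in *mau* for the test (0.36, adjusted p = 0.168). *opa* held 595.8, 684.3 and 655.3 in *sim* and 423.0, 343.2 and 317.3 in *mau*, a difference of 0.84 (SE 0.15, adjusted p = 0.00516) that was called in both mappings.

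Against *sec*, 4 of 9 members were higher in *sim* (*ftz*, *slp2*, *slp1* and *prd*), where 42.8% of genes differed and 19.5% were higher in *sim*. *ftz* held 2937, 3710 and 3358 in *sim* and 2045, 2180 and 1566 in *sec*. The difference was 0.80 on the log2 scale (SE 0.18, adjusted p = 0.0149) with no overlap, but only 0.18 mapped to *sec* (adjusted p = 0.46). *slp2* held 183.8, 218.7 and 228.0 in *sim* and 149.2, 140.8 and 124.2 in *sec* (0.60, SE 0.15, adjusted p = 0.0216), and was the only member called in both mappings. *slp1* (0.60, adjusted p = 0.043) and *prd* (0.76, adjusted p = 0.0434) passed narrowly. The other 5 members had log2 differences between 0.33 (*run*) and 0.54 (*odd*) and did not pass. The count rested on few embryos, at 2 without *sim* replicate 1, 0 without *sim* replicate 2, 1 without *sim* replicate 3 and 2 without *sec* replicate 1.

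Between *sec* and *mau* 0 of 9 members were called, where 32.4% of genes differed. Likewise 0 had an unadjusted p under 0.05 with limma, and edgeR called 1 (*odd*, 0.61). In this table *sec* replicate 3 was low for some members, at 33.9 scaled reads of *opa* against 278.1 and 356.5 in the other *sec* embryos, 65.9 of *run* against 158.4 and 225.3, and 124.2 of *eve* against 235.9 and 345.4. Mapped to *sim* in the other table, the same embryo held 686.5 of *opa* against 788.3 and 967.1, 1047 of *run* against 762.5 and 1110, and 282.1 of *eve* against 348.1 and 426.3. It was thus not low in this way in that mapping. Mapped to *sec* in the same table it was low again, with 29.7 of *eve* against 147.9 and 203 and 115.4 of *run* against 242.2 and 363.3. In the *mau* and *sec* table mapped to *mau* it held 59.7 of *eve* against 288.4 and 401.8. Without that embryo 5 members were called between *sec* and *mau*, but the share of all genes in that setting is not given here, so the count has no background.

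In hybrids both alleles share the same nuclei, and the share of reads from each was compared within embryos. Pair-rule alleles were closer to balance than the median gene in the *sim* and *mau* crosses. Over all genes the median share of the *sim* allele was 67.2% in *sim* x *mau* and 37.1% in *mau* x *sim*. By the study, part of the maternal RNA is still present at this stage. For the members the shares were 49.5% (*opa*) to 59.2% (*h*) and 48.98% (*opa*) to 61.1% (*slp2*). In genes that were mostly zygotic (at least 8-fold higher at stage 5 in the parents) the median share was 54.5% and 51.4%. The main mapping called 6 of 9 members higher from the *sim* allele in both directions of the cross (*h*, *slp2*, *odd*, *slp1*, *prd* and *ftz*), where 75.1% of genes were called higher from *sim* in *sim* x *mau* and 9.98% in *mau* x *sim*. By the interval of summed reads, 7, 6, 7, 5 and 6 of 9 members lay outside 49% to 51% in *sim* x *mau*, *mau* x *sim*, *sim* x *sec*, *sec* x *mau* and *mau* x *sec*, where 83.9%, 76.7%, 83.5%, 84.3% and 81.5% of genes did. The 6 in *mau* x *sec* included *run*, whose share took in the library labelled XX replicate 4, which held no *sec* reads of *run*. In the limma test the other mapping called 2 of 9 in each *sim* and *mau* cross, *eve* higher and *odd* lower from *sim*, and *ftz*, *odd* and *prd* changed sign in both crosses and *slp1* in *sim* x *mau*.

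**Figure D2:**
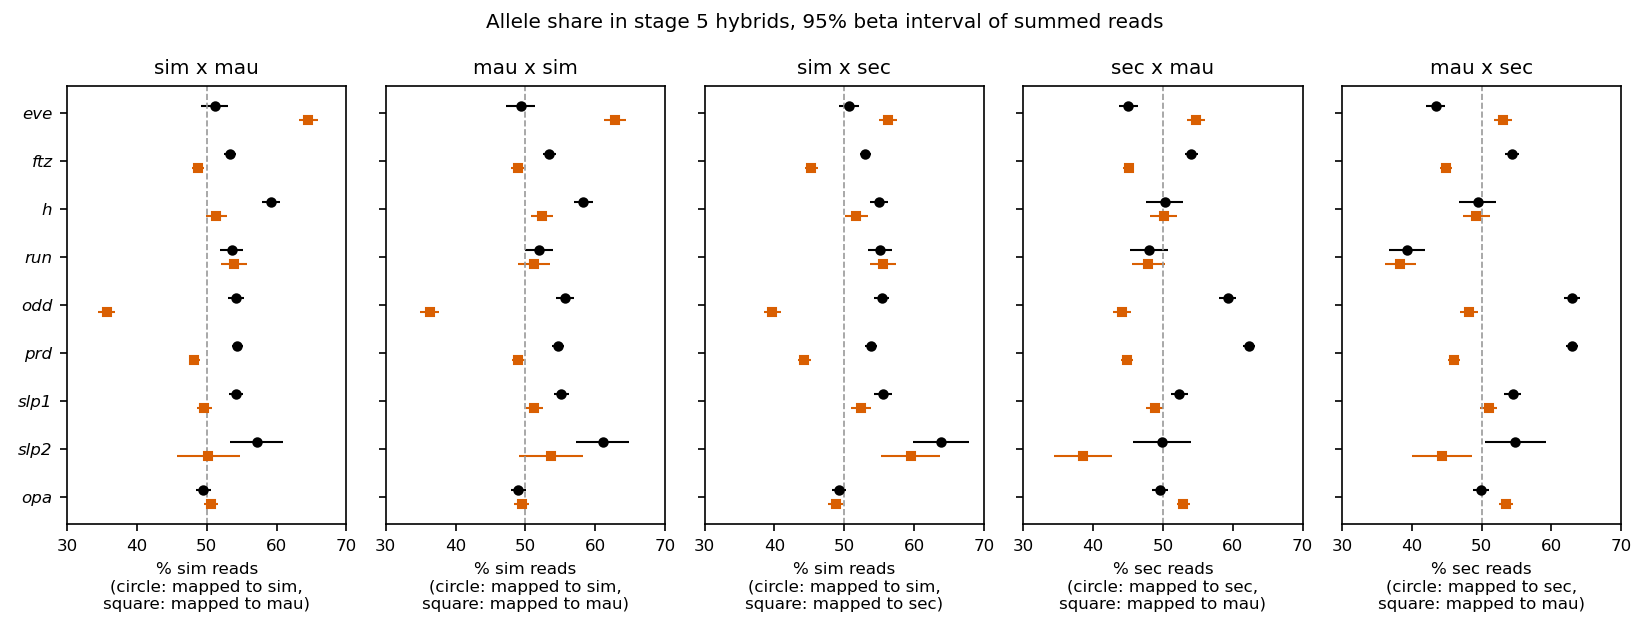
Percent of reads from the *sim* allele (first 3 panels) or the *sec* allele (last 2 panels) for each gene in stage 5 hybrids, with 95% beta intervals of reads summed over embryos (*run*: embryos labelled XX). Circles are the main mapping and squares the other mapping, and the dashed line is 50%. *odd* crosses the line between mappings in all crosses, while *opa* stays between 48.8% and 53.5%.

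*opa* was read nearly evenly from both alleles in every cross. The *sim* share per embryo was 48.53% to 51.03% in *sim* x *mau* (median 49.44%) and 46.43% to 50.84% in *mau* x *sim* (median 49.01%), and the log2 allele differences were −0.023 (95% interval −0.15 to 0.10) and −0.058 (−0.20 to 0.084). In *sim* x *sec* it was −0.047 (−0.20 to 0.11), and in the 2 *mau* and *sec* crosses −0.020 and −0.0051. Mapped to *mau*, the *sec* allele of *opa* was slightly higher in those last crosses (0.17, adjusted p = 0.0414, and 0.20, adjusted p = 0.0238).

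*h* and *slp2* had the highest shares in the *sim* and *mau* crosses in the main mapping. For *h* the *sim* share per embryo was 56.7% to 62.5% in *sim* x *mau* (median 59.0%) and 54.1% to 62.2% in *mau* x *sim* (median 58.6%), with *sim* higher in 6 of 6 embryos of each. The log2 differences of 0.54 (SE 0.07, adjusted p = 0.000455) and 0.46 (SE 0.079, adjusted p = 0.00206) fell to 0.081 and 0.13 in the other mapping, where neither was called. The sign was thus the same in both mappings and the size was not. In the other mapping the summed shares of 51.4% (49.9 to 52.8) and 52.3% (50.8 to 53.9) did not clear the margin of 49% to 51%. That mapping did not establish a direction.

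*slp2* showed the largest share in *sim* x *sec*. The *sim* share was 58.2% to 73.5% per embryo (median 64.0%), with *sim* higher in 6 of 6 embryos, and the summed share was 63.9% (95% beta interval 59.8 to 67.8). Both mappings called it, with log2 differences of 0.87 (SE 0.14, adjusted p = 0.0013) and 0.64 (adjusted p = 0.0104). Its neighbour *slp1* was at 55.5% in the main mapping (0.32, adjusted p = 0.00169) and 52.4% in the other, where it was not called (0.14, adjusted p = 0.0797). *run*, read only in the 3 embryos labelled XX, held a *sim* share of 54.2% to 56.3% in *sim* x *sec*. Its summed share of 55.1% (53.4 to 56.8) lay above 50% and was 55.5% in the other mapping, but with 3 embryos the limma test did not pass (0.29, adjusted p = 0.0744). In *sim* x *sec* 6 of 9 members were called in all (*slp2*, *odd*, *slp1*, *h*, *prd* and *ftz*), where 74.1% of genes were higher from *sim*. Mapped to *sec* the alleles of *ftz*, *odd* and *prd* were instead higher from *sec* (−0.27, −0.60 and −0.33). In that mapping 8.09% of the *odd* reads of *sim* embryos were assigned to *sec*.

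In *sec* x *mau* and *mau* x *sec* the same 4 members were called in the main mapping, where 80.7% and 69.1% of genes were called. *prd* had *sec* shares of 61.0% to 63.8% and 61.7% to 64.3% per embryo, and *odd* of 58.4% to 61.7% and 58.5% to 75.3%. *ftz* had shares of 52.89% to 55.05% and 53.7% to 54.7%, and *eve* of 41.8% to 47.2% and 41.7% to 45.4%. Each direction was seen in 6 of 6 embryos of both crosses. All 4 genes changed sign mapped to *mau*, where the summed *sec* shares became 44.8% and 46.0% for *prd*, 44.2% and 48.2% for *odd*, 45.1% and 44.9% for *ftz*, and 54.7% and 53.1% for *eve*. For *ftz*, *odd* and *prd* the summed share of the species whose genome served as reference was the higher one in all 5 crosses and both mappings.

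Between reciprocal crosses no member was called different in allele balance, though some intervals were wide. The difference in log2 allele ratio between *sim* x *mau* and *mau* x *sim* ran from −0.094 (*slp2*, 95% interval −0.57 to 0.38) to 0.10 (*eve*, −0.10 to 0.31), with a median of −0.016, whereas over all genes the median was 1.49. The test called 0 of 9 members, where 74.7% of genes were called. Between *sec* x *mau* and *mau* x *sec* it also called 0 of 9 against 72.2% of genes, with a median of −0.019 against 2.43. The values over all genes include genes with maternal RNA, while the members held almost no RNA at stage 2. Limma gave 0 members with an unadjusted p under 0.05 in either pair, and no edgeR test of this contrast was run. *run* had a difference of 2.90 (−3.26 to 9.07) in the *mau* and *sec* pair, which rested on the library labelled XX replicate 4 with no paternal *run* reads. Without *mau* x *sec* replicates 2 to 5 the *run* difference was −0.10, and 0 of 9 were called.

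Genes were sorted as in the study by comparing the share between the parents with the share between the alleles of a hybrid. A gene was called *trans* when only the parental interval lay outside 49% to 51%, compensatory when only the hybrid one did, *cis* when both did and overlapped in the same direction, *cis* + *trans* or *cis* x *trans* when they did not overlap and pointed the same or opposite ways, and conserved when neither did. The study took its intervals from Poisson-Gamma models and left out genes whose calls differed between mappings, whereas here beta intervals of summed reads were used and such genes are still described. In *sim* x *sec* the study reports *slp1* as *cis* + *trans*, and between these species *slp2* as *cis*. Here *slp1* in that cross was *cis* + *trans* mapped to *sim* but *trans* mapped to *sec*, so the 2 procedures can differ for a member. With both mappings, 1, 1, 3, 2 and 2 of 9 members received the same parental and hybrid calls from both in *sim* x *mau*, *mau* x *sim*, *sim* x *sec*, *sec* x *mau* and *mau* x *sec*, where 65.4%, 66%, 61.1%, 67.8% and 67.9% of all genes did. *opa* was *trans* in the 3 crosses with *sim* under all 17 alternative settings. *h* and *run* were *trans* in *sec* x *mau*, as was *h* in *mau* x *sec*. *run* was *cis* x *trans* in *mau* x *sec*, at a *sec* share of 39.3%, but this included the library labelled XX replicate 4 with 0 paternal reads, and without it the share was 46.9% and the category *trans*. Among all genes with the same calls, 9.3%, 12.6%, 7.88%, 6.79% and 6.32% were *trans* in the order of the crosses above.

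For *opa* the interval between parents lay outside the margin and that between alleles did not, where both intervals cover counting error only. The *sim* share between the parents was 64.1% (61.9 to 66.3) in the *sim* and *mau* pair, against 49.5% (48.5 to 50.6) and 48.98% (47.88 to 50.08) between the alleles of the 2 hybrids. In the *sim* and *sec* pair it was 57.1% between parents and 49.3% (48.3 to 50.3) between alleles, but over the embryos limma did not call these parents different (0.42, adjusted p = 0.103). The test of the difference itself gave 0.87 (SE 0.15, adjusted p = 8.19e-05), 0.90 (SE 0.18, adjusted p = 0.000374) and 0.47 (SE 0.16, adjusted p = 0.0183) on the log2 scale. Mapped the other way, the parental share of *opa* rose to 86.2% and 67.2% while the hybrid shares stayed between 48.8% and 50.7%.

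*slp2* in *sim* x *sec* was *cis* under all 17 settings, with a share of 60.4% (56.5 to 64.1) between parents and 63.9% between alleles. The test of the difference gave −0.27 with an interval of −1.35 to 0.82, which leaves room for sizeable changes in either direction. *run* in the same cross was *cis* in the main mapping and *cis* + *trans* in the other. Its *trans* call in *sec* x *mau* held under all 17 settings, with a *sec* share of 64.9% (59.7 to 69.8) between parents and 48.0% (45.4 to 50.7) between alleles. Over the embryos, however, limma called neither the parental difference of *run* (0.72, adjusted p = 0.255) nor that of *h* (0.54, adjusted p = 0.205), nor their difference from the allele ratio, and the 65.9 scaled reads of *run* in *sec* replicate 3 lay below every *mau* embryo (72.9 to 93.5). *h* in the same pair had 60.4% (54.5 to 66.2) between parents and 50.3% (47.6 to 52.9) and 49.4% (46.8 to 52.1) between alleles, and became conserved with a margin of 45% to 55%.

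Over the set, the parental ratio differed from the allele ratio for 6 members in *sim* x *mau* (*h*, *opa*, *eve*, *odd*, *run* and *prd*), 5 in *mau* x *sim* (the same without *run*) and 3 in *sim* x *sec* (*ftz*, *prd* and *opa*), where 65.8%, 59.5% and 61.6% of genes did. *h* and *run* reversed in the other mapping of the *sim* and *mau* crosses. The 3 were 1 without *sim* replicate 2 and 1 without *sec* replicate 3. In *sec* x *mau* and *mau* x *sec* 0 members were called (62% and 54.9% of genes), with 0 and 2 at an unadjusted limma p under 0.05. Without *sec* replicate 3 the counts called were 4 and 3, given without the share of all genes in that setting. The contrast was not run in edgeR.

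For most members the hybrid embryos held more RNA than the mean of the parental embryos, whose libraries came from an earlier experiment. In all comparisons of hybrid sums below, cross and experiment cannot be told apart. Adding both alleles, 8, 7, 6, 7 and 9 of 9 members were called in *sim* x *mau*, *mau* x *sim*, *sim* x *sec*, *sec* x *mau* and *mau* x *sec*, of which 7, 7, 6, 6 and 8 were higher in the hybrid. Of all genes 56.7%, 54.4%, 46.9%, 55.9% and 56.5% were called, and 24.9%, 26.8%, 23.7%, 26.1% and 27.7% were higher. The median log2 difference over the members was 0.58, 0.52, 0.58, 0.64 and 0.91, against −0.067 to −0.0039 over all genes. Reciprocal crosses were set against the same parental embryos. *eve*, *run*, *odd* and *opa* were more than 25% above both parents, the limit set by the study, in all 5 crosses in both mappings. In the main mapping 5, 4, 5, 6 and 6 of 9 members were above both, where 12.8%, 14.4%, 12.8%, 17.5% and 19.3% of genes were, and the other mapping put 16.6%, 17.2%, 15.9%, 17.2% and 19.3% of genes there.

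**Figure D3:**
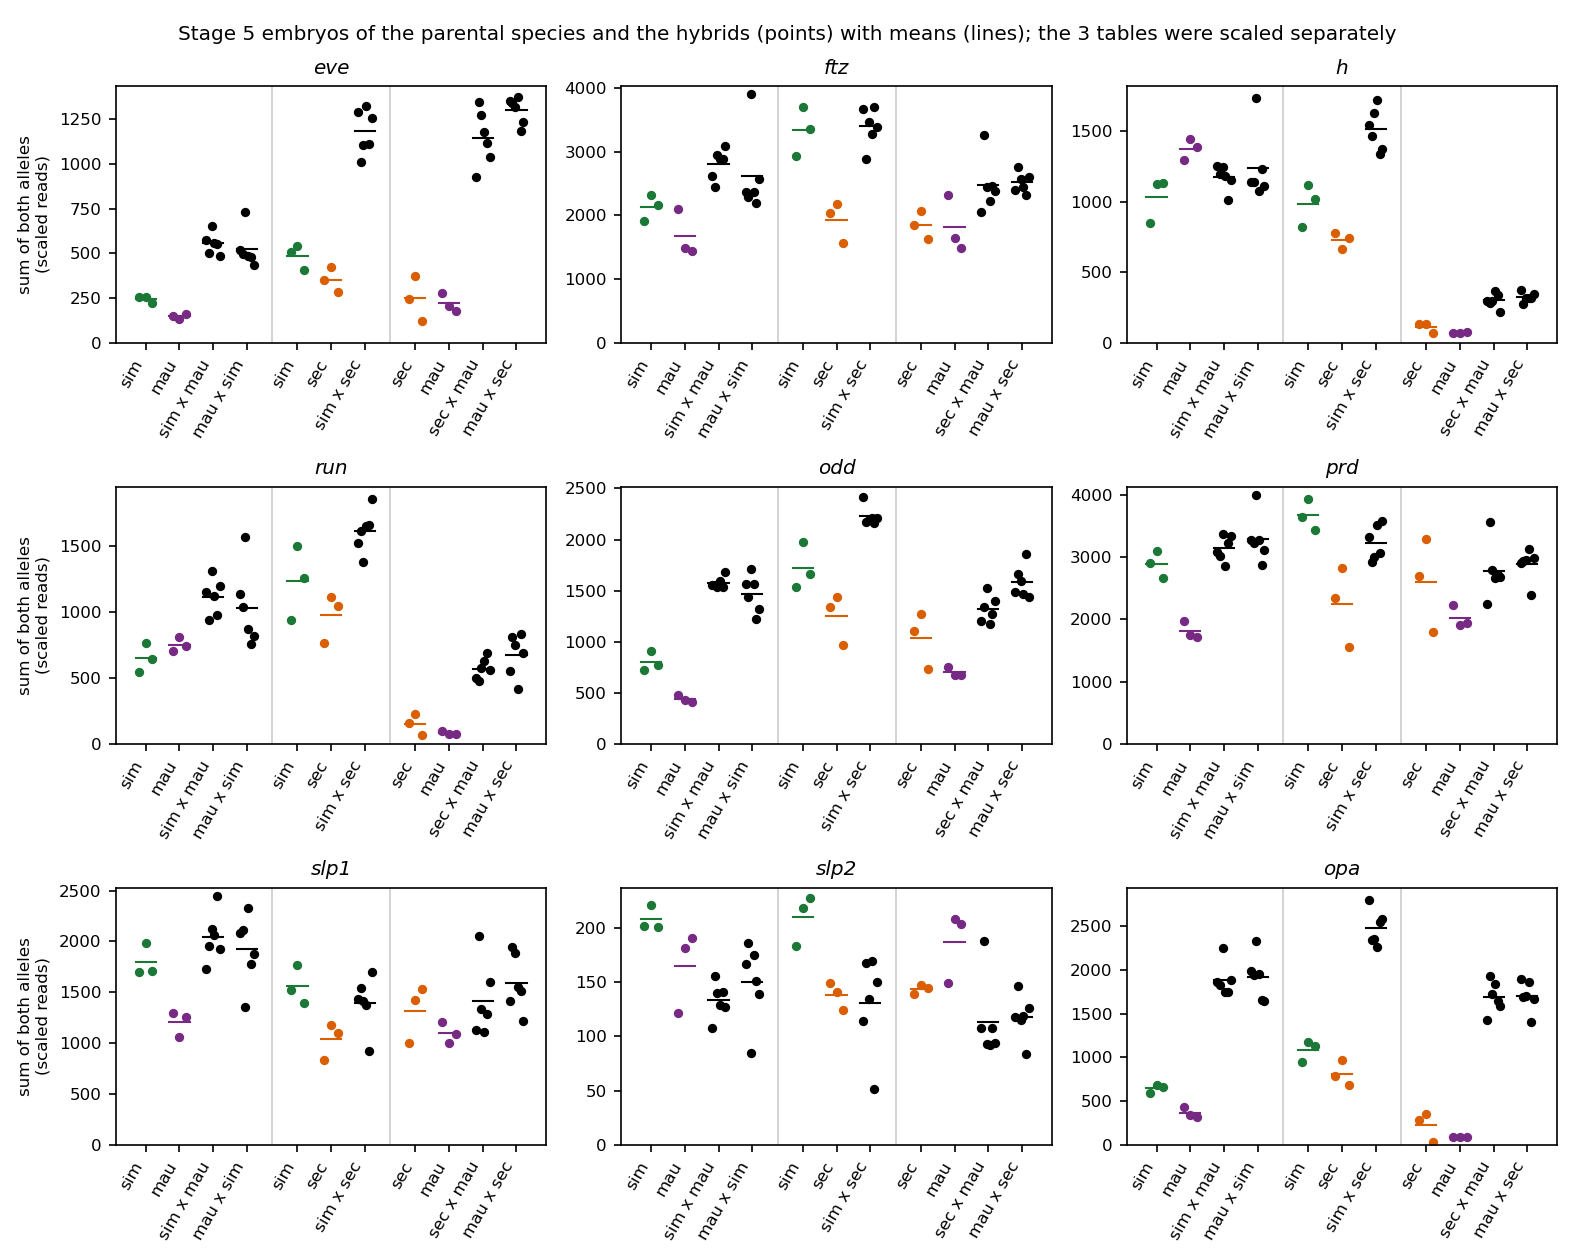
Sum of both alleles in scaled reads for each pair-rule gene at stage 5 in parental embryos (coloured points, 3 per species) and hybrid embryos (black points, 6 per cross), with a line at each mean. The 3 tables are set apart by grey lines and have separate scales. All hybrid points of *opa* and *eve* lie above all parental points of their table, while for *slp2* the hybrid means lie below the mean of both parents.

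*opa* was above its parents in every cross. Its sum was 1746 to 2253 in *sim* x *mau* (median 1846) and 1645 to 2327 in *mau* x *sim* (median 1947), against 595.8 to 684.3 in *sim* and 317 to 427 in *mau*. No hybrid embryo overlapped a parent, and the hybrid means were 2.93-fold and 2.97-fold above the higher parent. In *sim* x *sec* the sum was 2263 to 2799 (median 2448) against 949.6 to 1171 in *sim* and 686.5 to 967.1 in *sec*. The log2 differences from the mean of both parents were 1.96 (SE 0.097, adjusted p = 1.47e-10), 1.98 (SE 0.097, adjusted p = 1.6e-10) and 1.41 (SE 0.10, adjusted p = 6.85e-07). In the *mau* and *sec* crosses the medians of 1685 and 1698 stood against parents at 33.9 to 356 and 83.7 to 92.9, a log2 difference of 3.86 and 3.87. The size of the rise changed with the mapping. In the *sim* and *mau* table the *mau* embryos had a mean of 362.4 mapped to *sim* and 90.2 mapped to *mau*. The *sim* x *mau* means were 1887 and 1946 in the same order. The cause was not tested.

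*eve* was also above both parents in every cross, with 486.9 to 655.0 in *sim* x *mau* (median 556.2) and 433.9 to 728.8 in *mau* x *sim* (median 492.8). The hybrid means were 2.26-fold and 2.14-fold above the higher parent, and the log2 differences from the mean of both parents were 1.53, 1.43, 1.52, 2.36 and 2.55 in the order of the crosses above. *odd* rose by 1.42, 1.31, 0.62, 0.64 and 0.91, with 1532 to 1682 in *sim* x *mau* and 1218 to 1711 in *mau* x *sim*. *run* rose by 0.67, 0.52, 0.58, 2.43 and 2.65. All of these passed the test. Their sizes changed with the mapping, to 4.17 for *eve* and 2.72 for *run* in *sim* x *mau*, and the part of the few variant sites of *eve* and *run* was not tested. For the X-linked *run* the hybrid sums joined embryos labelled XX and XY, and the parental embryos had no sex label. The part of X dose in its rise was not tested.

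*h* was not different from the mean of both parents in *sim* x *mau* and *mau* x *sim* (−0.021, 95% interval −0.26 to 0.21, and 0.038, −0.20 to 0.27), but mapped to *mau* it was higher by 1.78 and 1.80. In *sim* x *sec*, *sec* x *mau* and *mau* x *sec* it was higher by 0.84, 1.76 and 1.89 in the main mapping and by 1.702, 2.51 and 2.59 in the other. *ftz* rose in all 5 crosses by 0.43 to 0.58. *prd* and *slp1* rose in *sim* x *mau* (0.46 and 0.47), *mau* x *sim* (0.52 and 0.37) and *mau* x *sec* (0.35 and 0.40), and did not pass in *sim* x *sec* (0.19 and 0.12) or *sec* x *mau* (0.29 and 0.22).

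*slp2* went the other way from its neighbour. Its sum was 107.6 to 155.5 in *sim* x *mau* (median 134.3), 92.3 to 187.5 in *sec* x *mau* (median 100.6) and 83.9 to 146.9 in *mau* x *sec* (median 118.2), where it fell by 0.47, 0.57 and 0.48 on the log2 scale (adjusted p = 0.0257, 0.00866 and 0.0211). In *mau* x *sim* and *sim* x *sec* the differences of −0.33 and −0.47 did not pass. In *sim* x *sec* the *slp2* sums ran from 51.2 to 169.2, the widest spread relative to the mean among the members in that cross.

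**Figure D4:**
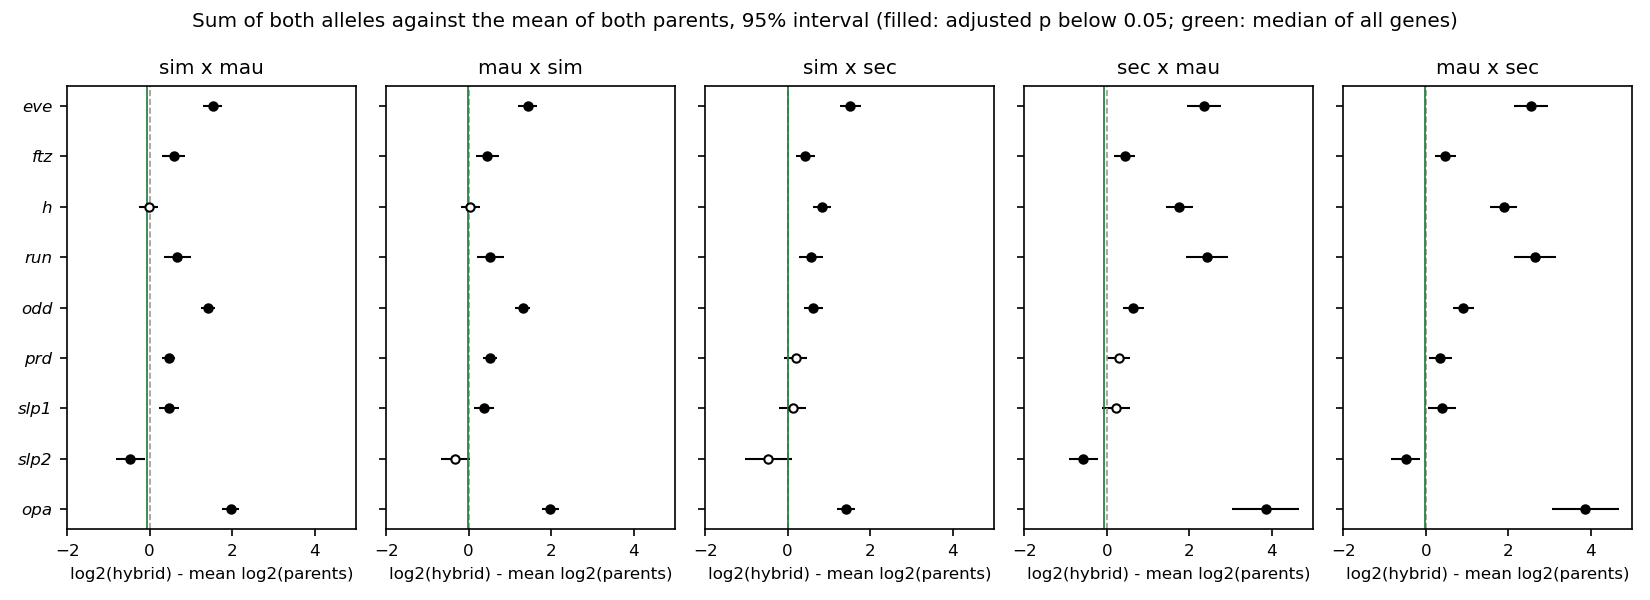
Log2 difference between the sum of both alleles in hybrids and the mean of both parents at stage 5, main mapping, for each pair-rule gene and cross, with 95% intervals. Filled points have an adjusted p below 0.05 (limma), the dashed line is 0 and the green line is the median of all genes. *opa* and *eve* lie right of 1 in all crosses, *slp2* lies left of 0, and *h* lies at 0 only in the *sim* and *mau* crosses, where the other mapping puts it at 1.78 and 1.80.

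As a description, the genes outside the set whose log2 sums followed *eve* most closely over all stage 5 embryos of a table were the ribosomal protein genes *RpL18* (Pearson r 0.971 to 0.986 in 2 tables) and *RpL23* (0.9748 to 0.9770), and for *opa* the splicing factor gene *RnpS1* (0.978 to 0.991) and *RpL23* (0.973 to 0.986). *eve* and *opa* followed each other with r of 0.979 to 0.981 in 3 tables. The embryos of a table share their scaling and fall into parental and hybrid groups, and these genes were higher in the hybrids as well. *RpL18* summed to 2469 to 6605 in the parental embryos of the *sim* and *mau* table and to 13161 to 16570 in the hybrids, and *RnpS1* to 1000 to 1925 and 3202 to 3824. The part of sequencing batch in these sums was not tested. For *ftz* the nearest genes were *lin* (0.883 to 0.956) and *spi* (0.877 to 0.905), for *prd* *Fbxl7* (0.874 to 0.939), for *slp1* *gsb* (0.730 to 0.897) and for *slp2* *Gsc* (0.766 to 0.835). *h*, *run* and *odd* had no such gene shared by 2 tables.

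*run* is the only X-linked member, so that at this stage its level can differ between embryos with 2 and with 1 X chromosome. As the parental embryos had no sex label, X dose cannot be told apart in its species differences and parental ratios. In the *sim* and *mau* crosses embryos labelled XX held 1219 ± 175 scaled reads (SD, n = 7) and those labelled XY 872 ± 89.2 (n = 5). The log2 difference of 0.46 (SE 0.11, adjusted p = 0.0166) was the only call among the 9 members, where 9.9% of genes were called. In *sim* x *sec* *run* was 1714 ± 129 in XX and 1519 ± 136 in XY embryos (0.17, not called). There 0 of 9 members were called by limma and 1 had an unadjusted p under 0.05 (*h*, −0.23), where 1.79% of genes were called. XY embryos of these crosses held the maternal *run* allele, with 0 to 1.2 scaled reads from the paternal one.

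In the *mau* and *sec* crosses 0 of 5808 genes were called between labels XX and XY (0% of genes) by limma and by edgeR, and 0 members had an unadjusted p under 0.05. The sex labels of *mau* x *sec* did not follow the X-linked transcripts. The library labelled XX replicate 4 held 416 scaled reads of maternal and 0 of paternal *run*, with *Sxl*, the switch gene of the XX state, at 487. The libraries labelled XY replicates 2 and 3 held 399 and 370 of maternal and 415 and 381 of paternal *run*, with *Sxl* at 1810 and 1721. Left out together with replicate 5, these libraries gave a *run* difference of 0.28 (adjusted p = 0.388).

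**Figure D5:**
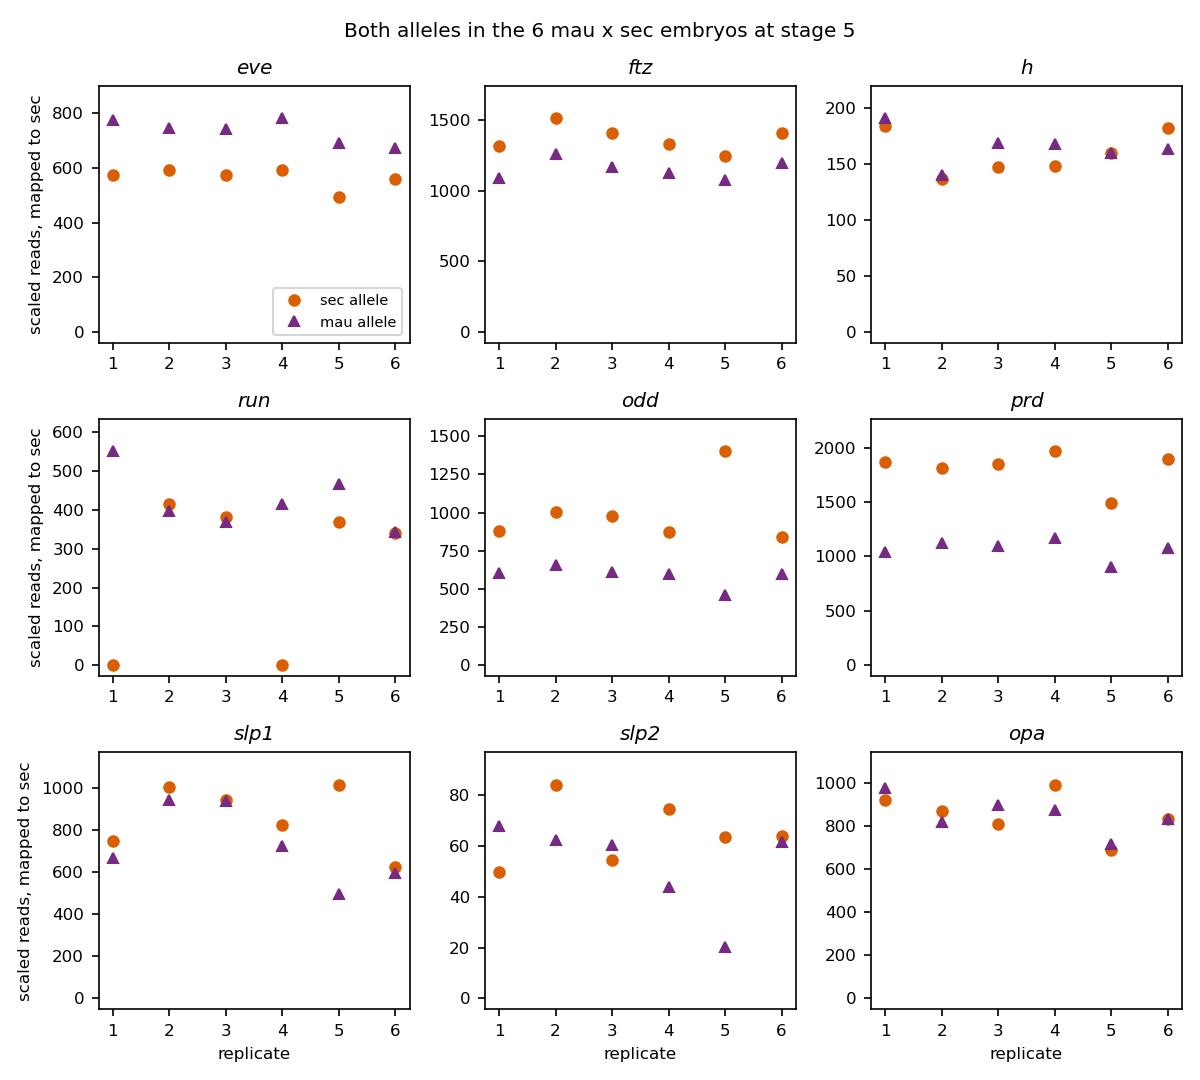
Scaled reads of the *sec* allele (circles) and the *mau* allele (triangles) of each pair-rule gene in the 6 *mau* x *sec* embryos at stage 5, main mapping. Replicate 5 has 1401 reads of *sec odd* and 460 of *mau odd*, *run* lacks the *sec* allele in replicates 1 and 4, and in the other mapping the allele that is higher in summed reads changes for *eve*, *ftz*, *odd*, *prd*, *slp2* and *opa*, though *odd* in replicate 5 stays higher from *sec*.

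*mau* x *sec* replicate 5 differed from the others gene by gene along the chromosomes. *odd* had 1401 scaled reads from the *sec* and 460 from the *mau* allele, a *sec* share of 75.3% where the other 5 embryos had at most 61.6%. *slp1* had 1017 and 496 (67.2%, the others at most 53.1%) and *slp2* 63.6 and 20.3, while *prd*, further along 2L, was not shifted with 1488 and 906. In *D. melanogaster* coordinates *odd* lies at 3.6 Mb, *slp1* and *slp2* at 3.8 Mb and *prd* at 12.1 Mb of 2L. Over the 55 mostly zygotic genes of 2L below 9 Mb the median *sec* share in this embryo was 62.6% against 44.4% to 48.0% in the other 5, and over the 66 genes above 9 Mb it was 51.5%. On X the median was 0.56% over 43 genes below 15 Mb and 52.6% over 17 above, where *run* lies at 20.7 Mb, and *run* had 466 reads from *mau* and 370 from *sec* although *Sxl* was at 451. The limits of 9 and 15 Mb were chosen after seeing the values, and their source was not tested.

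Other genes of the segmentation hierarchy are given as counts, with no test between lists. From stage 2 to stage 5 all tested segment polarity genes rose, 8 of 8 in *sim* (*nkd* by 11.34 on the log2 scale), 8 of 8 in *mau* (*ci* by 11.08) and 9 of 9 in *sec*. A gene was tested only if its mean reached 5 at either stage. One with little RNA at stage 2 thus entered only through its stage 5 level, so this count was partly set by the filter. Of 10 upstream regulators, maternal and gap genes, 6, 7 and 6 rose and 3 fell in each species, against 49.6%, 50.5% and 48.7% of all genes that rose. Among 6 cofactors and relatives *drm* rose by 8.73 in *sim* and *ftz-f1*, which encodes the maternally supplied partner of Ftz, fell by 5.90. Between *sim* and *mau* at stage 5, 6 of 8 segment polarity genes were higher in *sim* (*mid* 1.51, *gsb* 1.17) with a median of 0.60 close to the 0.59 of the members. Of 10 upstream regulators 3 were higher (*D* 0.96) and 1 lower (*bcd* −1.41), where 22.4% of all genes were higher. Against *sec* 4 of 9 segment polarity genes were higher in *sim* (*gsb* 0.84, *ptc* 0.76).

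Between reciprocal crosses 4 of 6 cofactors were called in the *sim* and *mau* pair, near the 74.7% of all genes, with *ftz-f1* at 7.11 and *Ten-m* at 6.70 toward the maternal allele, and in the *mau* and *sec* pair 4 of 5 against 72.2% of all genes, with *ftz-f1* at 7.63 and *gro* at 6.54. Segment polarity genes gave 0 of 8 in the first pair and 1 of 8 in the second (*hh* −0.75), and upstream regulators 1 of 10 in the first (*Stat92E* 0.91). For hybrid sums 5, 6, 2, 4 and 5 segment polarity genes of 8 (9 in *sim* x *sec*) were above the mean of both parents in the order of the crosses above, and 6, 5, 6, 6 and 6 of 10 upstream regulators.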

How the data were processed

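Single embryos were extracted with TRIzol, and poly(A) libraries (TruSeq) were read as 100 bp pairs. The authors trimmed reads with Cutadapt 1.7.1, aligned them with TopHat 2.0.13 to FlyBase assemblies of *D. simulans* and *D. sechellia* and to a *D. mauritiana* assembly, called variant sites between species with GATK (version not given in the sources used here), and counted reads by allele per gene. The deposited values are an abundance signal: the authors scaled reads per allele to the upper quantile of each table. They were whole multiples of 1 read in all 162 combinations of embryo, table and mapping (100% of values within 0.01 read), so reads were recovered for intervals and for edgeR.

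Computed here: limma 3.58.1 on log2(value + 1), as the signal is not raw counts, for genes with a mean of at least 5, with Benjamini-Hochberg adjustment over all genes kept and a threshold of 0.05, two-sided. Fold changes are on that scale, which understates changes of low genes. Allele differences were taken within embryos (for *run*, in embryos labelled XX), parental against allele ratios used the embryo as a block, and shares came from reads summed over embryos with 95% beta intervals (prior 0.5 per allele), which cover counting error only. PCR duplicates were not separated by molecular identifiers. edgeR 4.0.16 on the recovered reads called 5152, 5505 and 5232 genes between stages in *sim*, *mau* and *sec* (limma 5147, 5371 and 5145), 3469, 2930 and 2287 between species at stage 5 (3157, 2718 and 1917), and 3590, 3515, 3087, 3270 and 3378 for hybrid sums (3603, 3465, 3001, 3340 and 3387). Alternatives were the other mapping, edgeR, TMM factors, a pseudocount of 0.5, no minimum, a replicate block, wider or no margins, XX embryos only, and leaving out each embryo. A mean-variance trend in limma, and leaving out *mau* x *sec* replicates 2 to 5, were added after seeing the data. R 4.3.3, Python 3.11.15, numpy 2.4.6, pandas 2.3.3, scipy 1.17.1 and matplotlib 3.10.9 were used, and the fits were tested on simulated data.

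All 9 members are described. Of other lists at most 2 called genes are named per comparison, those with the largest absolute difference, and similar genes are those among the 10 nearest by correlation in at least 2 tables with a mean of at least 20. The members and lists were chosen with earlier results of these data known. No sequence is printed, as no genome was used here.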

Additional observations from a re-analysis of the deposited data

Results flagged for a closer look

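In groups of 6 embryos the distance of the highest or lowest embryo to its nearest neighbour was compared with the group's range by Dixon's test. Of 85 groups 11 passed, where chance gives about 1 in 20. The groups were sums and shares from the same embryos and were not independent, so an excess over chance was not tested. In *mau* x *sim*, replicate 3 was highest for *eve* (728.8 scaled reads, next 520.1), *ftz* (3911, next 2571), *h* (1735, next 1228) and *prd* (4004, next 3282). In *sim* x *mau*, *opa* was highest in replicate 3 (2253, next 1881). In *sim* x *sec*, *odd* was highest in replicate 1 (2414, next 2213). In *sec* x *mau*, replicate 2 was highest for *ftz* (3258, next 2464) and *slp2* (187.5, next 107.5), and its early cellularisation transcripts summed to 9274, the lowest of that cross. In *mau* x *sec*, replicate 5 had the highest *sec* share of *odd* (75.27%, next 61.55%) and *slp1* (67.23%, next 53.12%) and the lowest *prd* sum (2394, next 2910).

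Outside the main mapping, *odd* reads mapped to *mau* were present at stage 2 with mean sums of 51.8 (*mau*) and 81.1 (*sim*) in the *sim* and *mau* table and 56.7 (*mau*) and 40.0 (*sec*) in the *mau* and *sec* table, against 0 to 0.94 in embryos of hybrid mothers.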

How the results depend on the processing

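Every reversal came from the other mapping. Among values called in at least 1 mapping, the sign changed there between species at stage 5 for *h* (0.86), *run* (1.63) and *odd* (−0.20) in *sim* against *mau*, and between alleles for *ftz* (−0.091), *odd* (−0.85), *prd* (−0.11) and *slp1* (−0.013) in *sim* x *mau*, *eve* (0.74), *ftz* (−0.065), *odd* (−0.81) and *prd* (−0.065) in *mau* x *sim*, *ftz* (−0.27), *odd* (−0.60) and *prd* (−0.33) in *sim* x *sec*, *eve* (0.27), *ftz* (−0.29), *odd* (−0.34), *prd* (−0.31), *slp2* (−0.65) and *opa* (0.17) in *sec* x *mau*, and *eve* (0.19), *ftz* (−0.29), *odd* (−0.12), *prd* (−0.23) and *opa* (0.20) in *mau* x *sec*. The parental against allele ratio of *h* and *run* became 0.78 and 1.40 in *sim* x *mau* and 0.73 and 1.54 in *mau* x *sim*, and the *h* sum in *sim* x *mau* 1.78. Shares that crossed the margin were *odd* 35.7% and 36.3% (*sim* x *mau*, *mau* x *sim*), *ftz* 45.3%, *odd* 39.7% and *prd* 44.3% (*sim* x *sec*), *eve* 54.7%, *ftz* 45.1%, *odd* 44.2% and *prd* 44.8% (*sec* x *mau*), and *eve* 53.1%, *ftz* 44.9% and *prd* 46.0% (*mau* x *sec*). The cause was not tested.

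Counts of members called in the other mapping became 1 for *sim* against *sec* and for *sec* against *mau* at stage 5, 1 for *sim* against *mau* and for *sec* against *mau* at stage 2, 2 for alleles in *sim* x *mau* and in *mau* x *sim*, and 5, 2 and 2 for parental against allele ratios in *sim* x *sec*, *sec* x *mau* and *mau* x *sec*. Members with a share outside the margin became 3 of 9 (from 7) and 2 of 9 (from 6) in *sim* x *mau* and *mau* x *sim*. With a margin of 45% to 55% they became 1, 2, 1 and 2 in *sim* x *mau*, *mau* x *sim*, *sim* x *sec* and *sec* x *mau*. Without a minimum value *sim* against *sec* fell to 2 at stage 5 and rose to 2 at stage 2, and *sim* against *mau* at stage 2 rose to 1. edgeR called 1 member for *sec* against *mau* at stage 5.

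Leaving out 1 embryo gave 5 to 6 members for *sim* against *mau*, 0 to 4 for *sim* against *sec* and 0 to 5 for *sec* against *mau* at stage 5, and 1 to 4, 0 to 4 and 0 to 3 for parental against allele ratios in *sim* x *sec*, *sec* x *mau* and *mau* x *sec*. In the last 2 crosses the count was 1 without *sec* replicate 2. None of these counts was set against the share of all genes called in the same setting. Correlations of deviations between embryos with the same replicate number ran from −0.23 to 0.53, and the main fits did not pair embryos by that number. A replicate block lowered *sim* against *sec* from 4 to 2 members and moved no other count by over 1.5 times. A pseudocount of 0.5 changed 0 of 234 single values in direction or call, and a mean-variance trend 4, TMM factors 2 of 126 and edgeR 5 of 126 in call only. *slp2* had the fewest hybrid reads of the members in *sim* x *mau*, which limits its precision.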
